A study of Mus musculus with 75 samples.

Results

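The cytochrome P450 genes were followed in the lungs of control and BLEO-IPF mice, as the protein-coding genes of the count table whose Ensembl release 96 symbol starts with Cyp and a digit. There were 100 such genes among the 55536 genes of the table, 61 of families 1 to 3, 20 of family 4 and 19 of families 5 and above. Of these, 29 passed the filter on low counts and were tested, 14 of families 1 to 3, 8 of family 4 and 7 of families 5 and above. RNA of the inferior lung lobe was sequenced in 75 male C57BL/6JRj mice, each a separate animal with 1 library. BLEO-IPF mice were 12 to 14 weeks old when bleomycin sulphate (BLEO), an antineoplastic agent that injures the lung and causes fibrosis, was instilled once into the trachea. They entered the study groups after losing 5 to 17% of their body weight by day 6, so they were selected for a moderate reaction. Of the BLEO-IPF mice, 10 were killed on day 7 and 7 on day 42, while days 14, 21, 28 and 35 had 12 mice apiece. The 10 control mice (CTRL), of the same age range of 12 to 14 weeks, are labelled as saline in the sample labels and described as untreated in the protocol. All days were compared with these same mice. Total counts ranged from 9240291 to 14665247 per mouse.

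P450 enzymes are heme proteins that insert an oxygen atom into their substrates, most of them with electrons from the reductase encoded by *Por*. Families 1 to 3 mainly oxidize drugs, pollutants and other foreign compounds, family 4 hydroxylates fatty acids and eicosanoids, and the higher families make and break down sterols, bile acids, steroid hormones, retinoic acid and vitamin D. In the lung, the club cells that line the small airways are known for their content of xenobiotic P450 enzymes. In whole lung RNA, fewer cells of a type and less RNA per cell cannot be told apart.

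In CTRL lungs, a few genes carried most of the P450 RNA. Levels between genes were compared in CPM, counts scaled to a common library size, per kb of exonic length. *Cyp2f2*, the club cell enzyme that activates naphthalene, had the highest level per length at 1254 ± 126 CPM per kb (SD, n = 10). It was followed by *Cyp4b1*, a lung enzyme that oxidizes fatty acids and foreign compounds, at 313 ± 34.9 CPM per kb, and *Cyp2b10*, a known target of the constitutive androstane receptor, at 177 ± 20.2 CPM per kb. *Cyp2s1* followed at 30.2 ± 3.32 CPM per kb, and the lowest tested gene was *Cyp46a1*, the cholesterol hydroxylase best known from brain, at 0.329 ± 0.121 CPM per kb. The CTRL ranges of the first 4 genes did not overlap with each other or with the next gene. Of the 28 pairs of neighbours in the order, only 6 had CTRL ranges that did not overlap, so the order from the fifth gene down was in most places not resolved. Taking the length of the longest transcript in place of all exons changed the rank of 19 of the 29 genes, by at most 8 ranks, and left the first 4 in place.

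**Figure D1:**
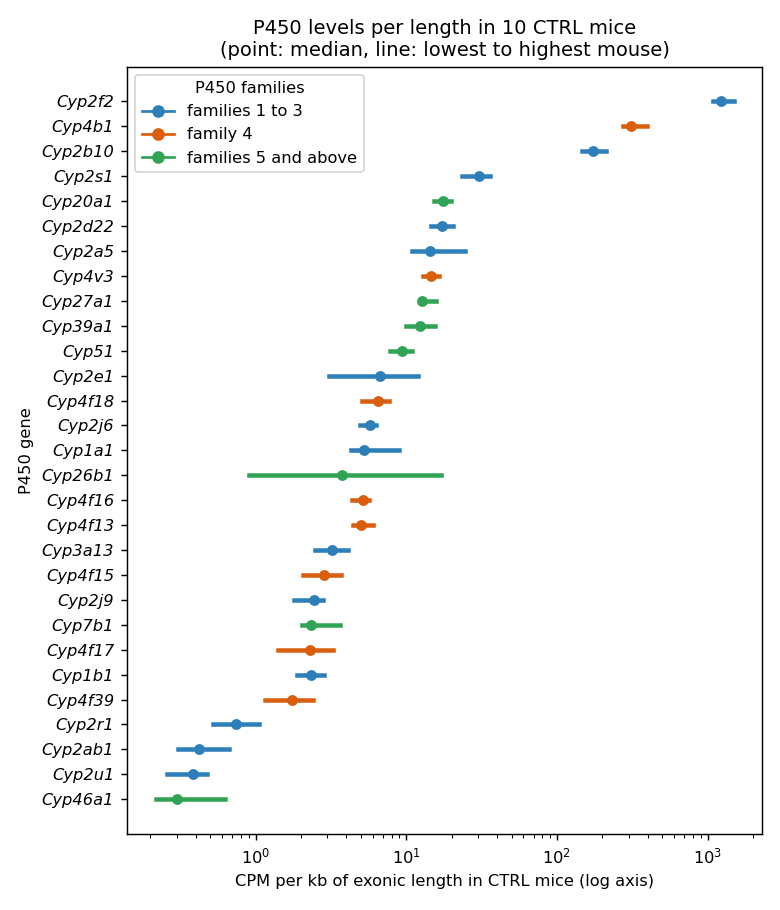
Level per length of the 29 tested P450 genes in the 10 CTRL mice, in CPM per kb of exonic length on a log axis, with a point at the median and a line from the lowest to the highest mouse. *Cyp2f2*, *Cyp4b1*, *Cyp2b10* and *Cyp2s1* stand above the rest, and most other neighbours overlap.

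The CPM of all 100 P450 genes together had a median of 4189 in CTRL mice, with a range from 3912 to 4817. On day 7 the median was 2521. It was lowest on day 14, at 1394 with a range from 926 to 2419, and stood at 1743 on day 21 and 2434 on day 28. Later medians were 3032 on day 35 and 2905 on day 42, when the mice ranged from 2324 to 3735. All BLEO-IPF mice of each of the 6 days therefore lay below all CTRL mice in summed P450 CPM. *Cyp2f2* alone made up a median of 60% of the sum in CTRL mice, 39.3% on day 14 and 57.8% on day 42.

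BLEO-IPF mice of each day were set against CTRL in edgeR's quasi-likelihood test over all 16221 genes that passed the filter, and a gene is called higher or lower where its adjusted p (Benjamini-Hochberg) lay under 0.05. On day 7, 14 of the 29 tested P450 genes were called lower (48.3%, where 21.0% of all genes tested were) and 5 higher (17.2%, where 24.8% of all were). On day 14, 16 were called lower (55.2%, 29.9% of all genes) and 5 higher (17.2%, 32.4% of all). On day 21, 13 were called lower (44.8%, 25.8% of all) and 5 higher (17.2%, 28.3% of all). P450 genes were thus called lower more often and higher less often than the genes tested as a whole on these days, as counts without a test of the difference. On day 28, 11 were called lower (37.9%, 19.2% of all) and 5 higher (17.2%, 24.1% of all). On day 35, 8 were called lower (27.6%, 13.1% of all) and 4 higher (13.8%, 16.9% of all). On day 42, 7 were called lower (24.1%, 11.0% of all) and 6 higher (20.7%, 13.7% of all), and a fit of only these 2 groups called 13 lower. The median log2 fold change (log2FC) of the 29 genes against CTRL was -0.33, -0.37, -0.22, -0.09, -0.19 and -0.26 from day 7 to day 42, while that of all genes tested lay between 0.0 and 0.02. Without the mouse that stood apart on day 7, described below, the numbers on that day were 3 higher and 12 lower. Without replicate 3 of day 42, those of day 42 were 5 higher and 6 lower.

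By family, the counts were as follows, without a test of the difference between families. Of the 14 tested genes of families 1 to 3, 8, 10, 9, 7, 5 and 4 were called lower in turn from the earliest to the latest day, and the only one called higher was *Cyp2e1* on day 28. The median over these 14 genes stood at a log2FC of -0.54 on day 7, at -1.02 on day 14 and at -0.49 on day 42. Of the 8 tested genes of family 4, 4 were called lower and 3 higher on day 14, and 2 lower and 3 higher on day 42. Of the 7 tested genes of families 5 and above, 2 were called in each direction on day 14 (28.6%, near the 29.9% and 32.4% of all genes tested). On day 42, 1 of the 7 was lower and 3 higher (14.3% and 42.9%, where 11.0% and 13.7% of all were). The call of *Cyp26b1*, 1 of these 3, rests on 1 mouse, described below. Over single genes, *Cyp2b10*, *Cyp2d22*, *Cyp39a1*, *Cyp4b1* and *Cyp4f15* were lower on all 6 days, and *Cyp4f16*, *Cyp4f39*, *Cyp51* and *Cyp7b1* were higher on all 6 days. *Cyp2a5*, *Cyp2f2*, *Cyp2s1* and *Cyp27a1* were lower on days 7 to 28 and not called on days 35 and 42. No call was made on any day for *Cyp1b1*, *Cyp2j6*, *Cyp2r1*, *Cyp2u1*, *Cyp4f17*, *Cyp20a1* and *Cyp46a1*.

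**Figure D2:**
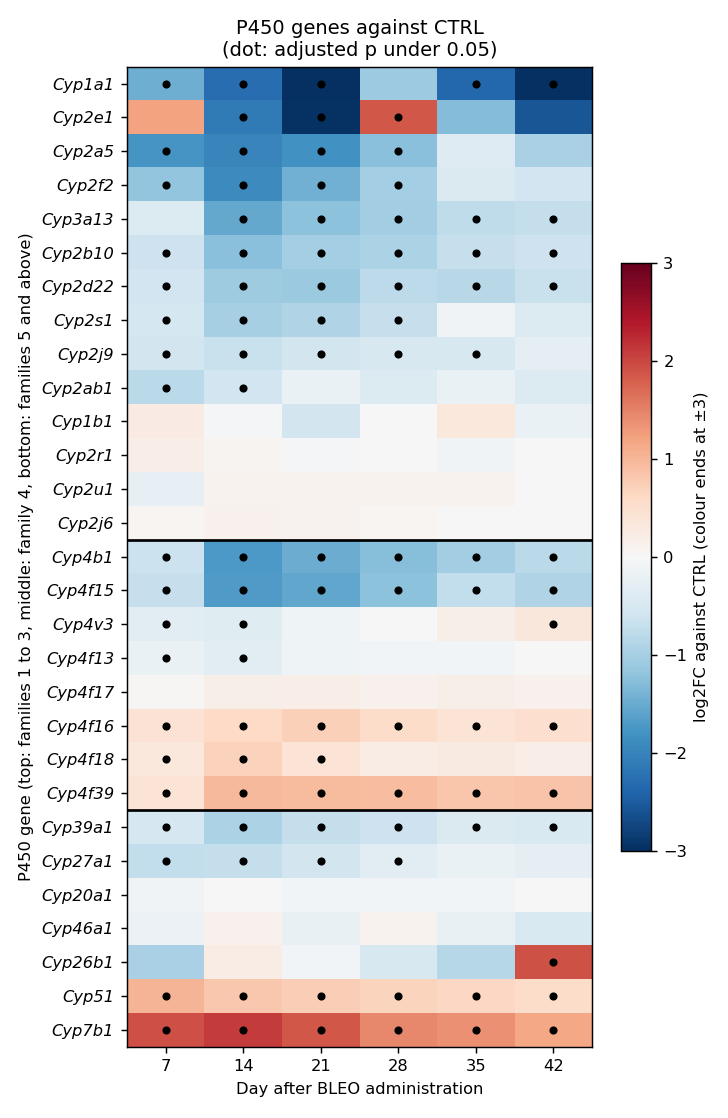
Log2FC against CTRL of the 29 tested P450 genes on the 6 days, with families 1 to 3 at the top, family 4 in the middle and families 5 and above at the bottom, blue for lower, red for higher, and a dot for an adjusted p under 0.05. Families 1 to 3 are mostly blue up to day 21, while *Cyp7b1*, *Cyp51*, *Cyp4f39* and *Cyp4f16* are red on all days.

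Among the xenobiotic enzymes, *Cyp1a1*, which oxidizes polycyclic aromatic hydrocarbons and is the classical target of the aryl hydrocarbon receptor, was lower on days 7, 14, 21, 35 and 42. Its level ranged from 12.1 to 24.8 CPM in CTRL mice (median 14.7), from 2.77 to 10.4 CPM on day 7 (median 5.00) and from 1.11 to 6.89 CPM on day 14 (median 2.49). On day 21 it ranged from 0.315 to 2.79 CPM, with a median of 1.04. All mice of these 3 days lay below the lowest CTRL mouse. The log2FC was -1.47 ± 0.54 (SE) on day 7, -2.28 ± 0.53 on day 14 and -3.63 ± 0.58 on day 21, with adjusted p-values of 0.0204, 0.000152 and 2.42e-07. On day 42 all 7 mice lay between 0.483 and 3.12 CPM, and the log2FC was -3.09 ± 0.68 (adjusted p = 0.000497). Its level on day 42 did not pass the test against day 14, with a log2FC of -0.81 ± 0.66 (adjusted p = 0.347). Of the 13 tested genes in families 1 to 3 other than *Cyp1a1*, 7 were higher on day 42 than on day 14, where 15.2% of all genes tested were. The rest of the 13 were, like *Cyp1a1*, not called between these days.

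Day 28 was decided by 1 mouse. *Cyp1a1* ranged from 0.194 to 70.4 CPM on that day, with a median of 1.21. Replicate 3 held the value of 70.4 CPM, above every CTRL mouse, and the next highest mouse had 4.27 CPM. Over all 12 mice the log2FC on day 28 was -1.08 ± 0.50 (adjusted p = 0.0731), and without replicate 3 it was -3.16 ± 0.40 (adjusted p = 2.71e-09). DESeq2 called the gene lower on day 28 (-3.11, adjusted p = 1.97e-13). With its default settings and groups of this size, it replaces counts flagged as outliers and refits. The value of replicate 3 may therefore not have entered that fit. The same mouse had the highest level of its group for *Nqo1* (15.9 CPM, next 10.8) and *Aldh3a1* (19.4 CPM, next 15.7), both known targets of the same receptor. Other targets were not raised in it, with *Ahrr* at 0.481 CPM (group median 0.501), *Cyp1b1* at 9.73 CPM (group median 10.8) and *Tiparp* at 52.4 CPM (group median 48.5, highest 55.4). On day 35, replicate 6 had 13.4 CPM of *Cyp1a1*, within the CTRL range, and the next mouse had 5.63 CPM.

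The aryl hydrocarbon receptor binds DNA at sites with the core GCGTG, and this core was searched on both strands in RefSeq promoter windows of GRCm38.p6 that run from 250 bases before to 50 bases after a gene's start. It was present in 32.4% of all 32851 windows and in 12 of the 24 tested P450 genes that had a window (50%). The 250 bases before the start of *Cyp1a1* (chr9:57697363-57697612, plus strand) and *Cyp1b1* (chr17:79715062-79715311, minus strand) are shown because both genes are textbook targets of the receptor and their RNA levels went apart. Each holds 1 match, in capitals, beginning 54 bases before the start of *Cyp1a1* and 76 bases before that of *Cyp1b1*, where it lies on the opposite strand and reads CACGC. A match describes the sequence and not a bound site.
Cyp1a1: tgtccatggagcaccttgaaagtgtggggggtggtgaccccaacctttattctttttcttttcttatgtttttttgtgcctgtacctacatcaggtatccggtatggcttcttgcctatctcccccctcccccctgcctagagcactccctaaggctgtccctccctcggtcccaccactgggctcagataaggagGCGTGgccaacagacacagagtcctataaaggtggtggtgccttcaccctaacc
Cyp1b1: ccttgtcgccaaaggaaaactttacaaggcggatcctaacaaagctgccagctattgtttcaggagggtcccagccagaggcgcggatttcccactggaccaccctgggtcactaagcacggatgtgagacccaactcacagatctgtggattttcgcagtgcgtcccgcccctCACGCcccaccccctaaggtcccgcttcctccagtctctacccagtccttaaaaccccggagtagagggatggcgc

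*Cyp1b1*, the close relative of *Cyp1a1*, was not called on any day. Its level was 11.0 to 16.7 CPM in CTRL mice (median 13.5), 6.14 to 23.9 CPM on day 14 (median 11.9) and 9.52 to 13.9 CPM on day 42 (median 11.9), and these ranges overlapped. The log2FC of *Cyp1b1* was furthest from 0 on day 21, at -0.54 ± 0.24 (adjusted p = 0.052), and it passed the test on that day in DESeq2 (-0.55, adjusted p = 0.0413). Of the other 9 listed genes of the receptor, its partners and targets, 8 were tested, and 0 were higher on any day. The numbers called lower from day 7 to day 42 were 2, 3, 4, 2, 1 and 1. Of all genes tested, 21.0, 29.9, 25.8, 19.2, 13.1 and 11.0% were called lower on these days. Most of the counts thus lay near the share of all genes. *Ahr*, the receptor itself, was lower on days 7, 14 and 21, with log2FC values of -0.61, -0.57 and -0.35. *Nqo1* was not called on any day, with a log2FC of -0.10 on day 14, and *Tiparp* was lower only on day 21 (log2FC -0.28).

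**Figure D3:**
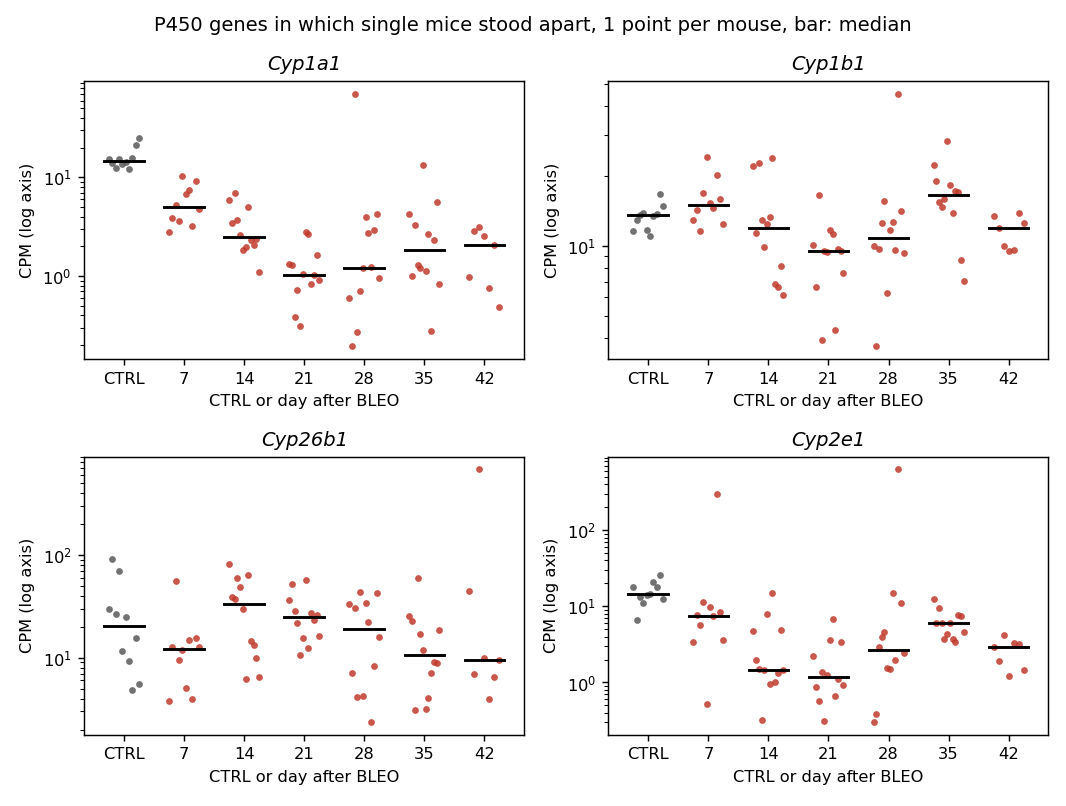
Levels of *Cyp1a1*, *Cyp1b1*, *Cyp26b1* and *Cyp2e1* in CPM on a log axis, with 1 point per mouse and a bar at the group median. Single mice stand far above their groups, at 70.4 CPM for *Cyp1a1* on day 28, 679 CPM for *Cyp26b1* on day 42, and 295 and 629 CPM for *Cyp2e1* on days 7 and 28.

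*Cyp2f2* fell in BLEO-IPF lungs on days 7 to 28. Its level ranged from 2197 to 3013 CPM in CTRL mice (median 2479), from 675 to 1447 CPM on day 7 (median 1190) and from 153 to 1347 CPM on day 14 (median 533). On day 21 it ranged from 395 to 1705 CPM (median 781) and on day 28 from 280 to 2024 CPM (median 1387). No mouse of these 4 days reached the lowest CTRL mouse. The log2FC was -1.18 ± 0.27, -1.91 ± 0.26, -1.45 ± 0.26 and -1.02 ± 0.26 on days 7, 14, 21 and 28, with adjusted p-values of 0.000296, 4.01e-09, 3.36e-06 and 0.000966. On day 35 the levels ran from 1346 to 2359 CPM (median 1815) and on day 42 from 1341 to 2413 CPM (median 1550). These ranges overlapped with CTRL, although 8 of 12 and 6 of 7 mice lay below the lowest CTRL mouse. The log2FC was -0.43 ± 0.26 (adjusted p = 0.206) on day 35 and -0.57 ± 0.30 (adjusted p = 0.164) on day 42, and fits of only those 2 groups called both days lower (adjusted p = 0.00153 and 0.000329). *Cyp2f2* was higher on day 42 than on day 14, by a log2FC of 1.35 ± 0.28 (adjusted p = 0.000143).

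The markers of club cells were not uniform beside *Cyp2f2*. *Scgb1a1*, the secretoglobin that defines club cells, ranged from 17908 to 24458 CPM in CTRL mice, from 1947 to 14181 CPM on day 14 and from 11373 to 18131 CPM on day 42. Its log2FC against CTRL was -0.73, -1.61, -1.34, -1.07 and -0.60 on days 7 to 35, all called lower, and -0.65 on day 42 (adjusted p = 0.0515). Of the 8 club cell markers, 3 were called lower and 2 higher on day 14, their median log2FC was 0.16 on that day and 0.67 on day 35, and none had a median level of 0 in any group. Their summed level, most of which was *Scgb1a1*, ran from 18380 to 25034 CPM in CTRL mice and from 2709 to 14610 CPM on day 14. The level of *Cyp2f2* as a percentage of that sum had a median of 11.3 in CTRL mice, 8.12 on day 7, 8.63 on day 14 and 12.3 on day 42. Its range was 9.53 to 12.3 in CTRL mice, 5.55 to 11.3 on day 7, 3.20 to 12.8 on day 14 and 9.96 to 13.7 on day 42, so the groups overlapped on this measure. Of the 8 markers of ciliated cells, the other main cell of the airway, 8 were lower on days 14, 21 and 28, and their sum ran from 527 to 745 CPM in CTRL mice and from 154 to 410 CPM on day 14. The part of club cell number in these changes was not tested.

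**Figure D4:**
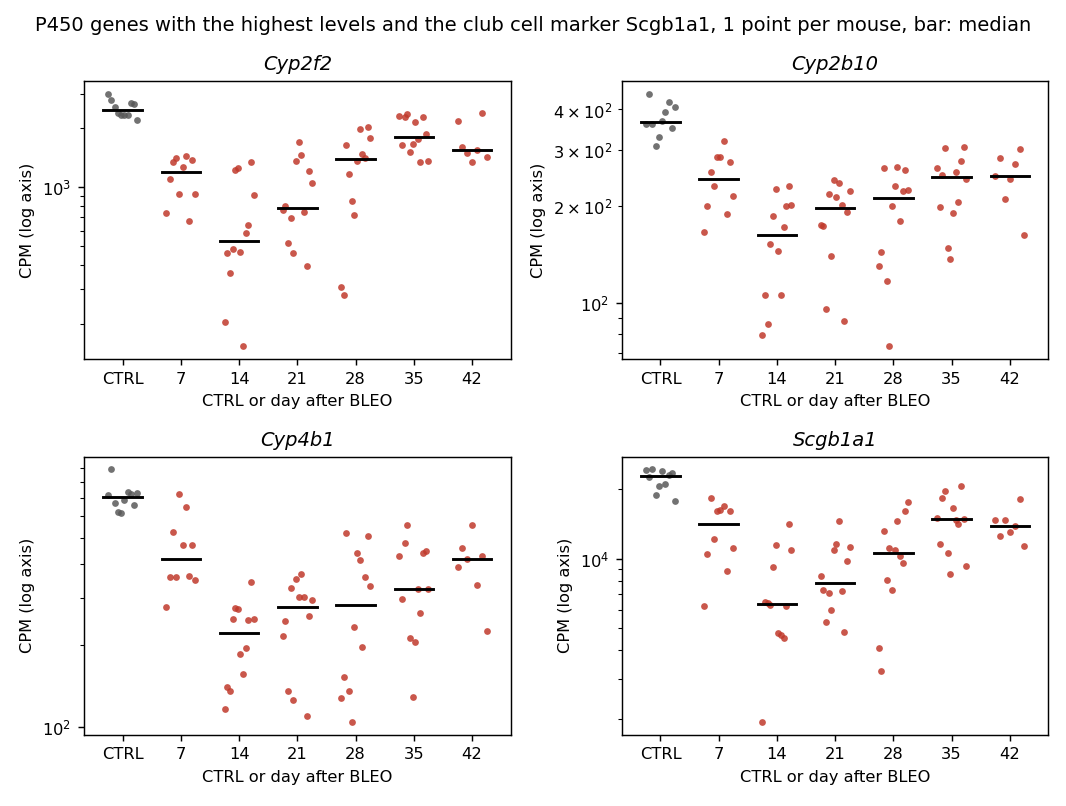
Levels of *Cyp2f2*, *Cyp2b10*, *Cyp4b1* and the club cell marker *Scgb1a1* in CPM on log axes, with 1 point per mouse and a bar at the group median. All 4 genes have their lowest median on day 14, when no mouse reaches the CTRL range.

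*Cyp2b10* was lower on all 6 days. The CTRL mice ranged from 309 to 448 CPM (median 365), the mice of day 14 from 79.7 to 232 CPM (median 163) and those of day 42 from 163 to 302 CPM (median 249). Except for 1 mouse on day 7 at 320 CPM, all BLEO-IPF mice lay below the lowest CTRL mouse. The log2FC was -0.63 ± 0.18 on day 7, -1.25 ± 0.17 on day 14 and -0.61 ± 0.20 on day 42 (adjusted p = 0.00293, 4.45e-09 and 0.0197). It fell from day 7 to day 14 (log2FC -0.62 ± 0.17, adjusted p = 0.00825) and was higher on day 42 than on day 14 (0.64 ± 0.19, adjusted p = 0.00611).

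*Cyp2a5*, which oxidizes coumarin and nicotine, ranged from 22.8 to 50.8 CPM in CTRL mice (median 29.7), from 2.97 to 23.4 CPM on day 14 (median 7.56) and from 10.4 to 43.8 CPM on day 35 (median 27.7). Only 1 of the 12 mice on day 14 reached the CTRL range, while 9 of 12 did on day 35. The log2FC was -1.98 ± 0.35 on day 14 (adjusted p = 1.79e-06) and -0.39 ± 0.34 on day 35 (adjusted p = 0.403). On day 42 it was -0.97 ± 0.40 (adjusted p = 0.0657), which a fit of only these groups and the fit with the replicate block called lower (adjusted p = 0.00495 and 0.0377). Of the 75-base windows in its exons, 22.3% also occur in another gene, most often *Cyp2a4*, so reads may be shared between these genes. *Cyp2s1* had log2FC values of -0.52, -0.99, -0.90 and -0.70 on days 7, 14, 21 and 28, all lower, and -0.11 and -0.42 on days 35 and 42, not called.

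These 4 genes lie in 1 cluster of P450 genes on chromosome 7, between positions 25802475 and 27133660 of GRCm38, from *Cyp2s1* over *Cyp2b10* and *Cyp2a5* to *Cyp2f2*. The cluster holds 12 of the 100 P450 genes, and the other 8 did not pass the filter. The sterol element TCACNCCAC was also searched on both strands of the promoter windows. Of the 24 tested P450 genes with a window, only *Cyp2b10* and *Cyp2a5* held it (8.33%, where 1.24% of all windows did). The window of *Cyp51* held no match.

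Of the remaining xenobiotic enzymes, *Cyp2d22* and *Cyp3a13*, mouse members of the subfamilies that handle most drugs in human liver, were lower over most of the course. *Cyp2d22* ranged from 57.4 to 79.8 CPM in CTRL mice (median 67.3) and from 24 to 51.3 CPM on day 14 (median 30.9), without overlap, and was lower on all 6 days, with log2FC values from -1.11 ± 0.14 on day 21 to -0.58 ± 0.15 on day 7. *Cyp3a13* ranged from 7.33 to 12.1 CPM in CTRL mice (median 9.57) and from 1.39 to 5.43 CPM on day 14 (median 3.30). It was not called on day 7 (log2FC -0.40 ± 0.19, adjusted p = 0.0718), fell between day 7 and day 14 (-1.14 ± 0.19, adjusted p = 1.47e-05) and was lower than CTRL from day 14 (-1.54 ± 0.18, adjusted p = 7.61e-11) to day 42 (-0.71 ± 0.21, adjusted p = 0.0101). *Cyp2j9*, of an arachidonic acid epoxygenase subfamily, was lower on days 7 to 35 with log2FC values between -0.67 and -0.48, whereas its neighbour *Cyp2j6* had values between -0.01 and 0.13 and no call. *Cyp2ab1* was lower on days 7 and 14 (-0.81 and -0.57). *Cyp2r1*, a vitamin D hydroxylase, and *Cyp2u1* had log2FC values between -0.24 and 0.21 and no call.

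*Cyp2e1*, the ethanol-oxidizing enzyme that is abundant in liver and fat, was called in both directions in edgeR's fit of all mice. Its higher values were decided by 2 mice. Its level ranged from 6.68 to 25.6 CPM in CTRL mice (median 14.5), from 0.325 to 15.1 CPM on day 14 (median 1.47) and from 0.315 to 6.86 CPM on day 21 (median 1.19). It was lower on day 14 (log2FC -2.11 ± 0.83, adjusted p = 0.0226) and day 21 (-2.96 ± 0.88, adjusted p = 0.00354). On day 7 replicate 8 had 295 CPM against a next highest 11.3, and on day 28 replicate 10 had 629 CPM against 14.8. The medians of *Cyp2e1* on these days, 7.53 and 2.68 CPM, lay below the CTRL median, whereas the log2FC was 1.20 ± 0.78 on day 7 (adjusted p = 0.206) and 1.86 ± 0.77 on day 28 (adjusted p = 0.0427). Without the respective mouse the log2FC was -1.26 ± 0.75 on day 7 (adjusted p = 0.168) and -1.87 ± 0.60 on day 28 (adjusted p = 0.0083). DESeq2, which by default replaces counts flagged as outliers, gave -1.32 and -1.89, both lower (adjusted p = 0.0152 and 0.000226). The high values of the 2 mice may therefore not have entered its fit. DESeq2 also called *Cyp2e1* lower on days 14, 21, 35 and 42 (log2FC -2.12, -3.0, -1.3 and -2.58). Day 35 was not called in edgeR's fit of all mice. Fits of only 2 groups called days 35 and 42 lower (adjusted p = 3.63e-05 and 3.36e-07). On day 42 all 7 mice lay below the CTRL range, from 1.20 to 4.16 CPM, and the log2FC of -2.57 ± 1.05 (adjusted p = 0.0608) passed the test without replicate 10 of day 28 (adjusted p = 0.00755). The difference between days 14 and 7 of -3.31 ± 0.82 (adjusted p = 0.00333) became -0.85 ± 0.76 (adjusted p = 0.475) without replicate 8 of day 7.

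The same 2 mice stood apart in markers of other tissues. Summed over 7 adipocyte markers, replicate 8 of day 7 had 886 CPM where the group median was 17.5, and replicate 10 of day 28 had 2188 CPM where the median was 22.9. In CTRL mice this sum ran from 7.79 to 60.2 CPM, and 1 of the 7 markers had a median of 0 in each of the 3 groups. Of the 5 adipocyte markers that were tested, 1 was higher on day 7 and 4 on day 28. *Adipoq*, the adipocyte hormone adiponectin, was at 66.4 CPM in the mouse of day 7 (next 1.37) and 196 CPM in the mouse of day 28 (next 3.33). The latter mouse also held 717 CPM of the atrial hormone *Nppa* (next 4.45), 2480 CPM over 7 cardiac markers (group median 141) and the highest *Cyp1b1* level of its group, 45.4 CPM (next 15.6). The part of fat tissue in the *Cyp2e1* level was not tested.

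Family 4 held genes that fell and genes that rose, as did all genes tested (29.9% lower and 32.4% higher on day 14). *Cyp4b1*, the P450 gene with the second highest level per length in CTRL lung, ranged from 617 to 893 CPM in CTRL mice (median 703), from 277 to 722 CPM on day 7 (median 416) and from 116 to 343 CPM on day 14 (median 222). On day 42 it ranged from 225 to 556 CPM (median 417). Apart from 2 mice on day 7, all BLEO-IPF mice lay below all CTRL mice. The log2FC was -0.64 ± 0.24 on day 7 (adjusted p = 0.0215), -1.72 ± 0.23 on day 14 (adjusted p = 1.42e-09) and -0.82 ± 0.26 on day 42 (adjusted p = 0.0181). *Cyp4b1* was higher on day 42 than on day 14 by 0.90 ± 0.25 (adjusted p = 0.00297).

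*Cyp4f15* was also lower, at a low level. It ranged from 4.75 to 8.40 CPM in CTRL mice (median 6.48) and from 0.336 to 3.98 CPM on day 14 (median 1.85), without overlap. The log2FC was -1.70 ± 0.29 on day 14 (adjusted p = 5.63e-07) and -0.91 ± 0.33 on day 42 (adjusted p = 0.0335). Its call on day 7 (-0.68 ± 0.29, adjusted p = 0.0478) was lost when library size alone set the scaling (adjusted p = 0.0584), with upper quartile factors (0.0533), without a filter on low counts (0.0885), and without replicate 8 of day 7 (0.0858), replicate 3 of day 28 (0.0504) or replicate 3 of day 42 (0.0512). The call on day 35 was lost without the filter (adjusted p = 0.0624). The call on day 42 was lost without replicate 3 of that day (adjusted p = 0.0522) and without a filter on low counts (adjusted p = 0.0666).

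*Cyp4f39*, whose human counterpart hydroxylates very long fatty acids for the skin barrier, and *Cyp4f16* were higher on all 6 days. *Cyp4f39* ranged from 3.29 to 6.85 CPM in CTRL mice (median 4.98), from 5.18 to 8.58 CPM on day 7 (median 6.54), from 7.22 to 15.2 CPM on day 14 (median 9.94) and from 7.96 to 12.1 CPM on day 42 (median 9.38). All mice of days 14 and 42 lay above the highest CTRL mouse, and 4 of 10 did on day 7. The log2FC of *Cyp4f39* was 0.41 ± 0.17 on day 7 (adjusted p = 0.0337), 0.98 ± 0.16 on day 14 (adjusted p = 2.28e-07) and 0.86 ± 0.18 on day 42 (adjusted p = 0.000211). Without replicate 8 of day 7, the adjusted p on day 7 was 0.067. *Cyp4f16* ranged from 13.4 to 17.4 CPM in CTRL mice (median 16) and from 20.1 to 35.2 CPM on day 21 (median 26.1), its highest day, with a log2FC of 0.72 ± 0.08 (adjusted p = 4.94e-11). On day 42 all 7 mice were above CTRL, at 20.5 to 26.3 CPM. *Cyp4f18*, an enzyme of neutrophils that inactivates leukotrienes, was higher on days 7, 14 and 21 (log2FC 0.31, 0.68 and 0.41) and lower on day 42 than on day 14 (-0.49 ± 0.13, adjusted p = 0.00264). Its exons overlap *Zfp961* on the opposite strand, which was lower on days 7, 14 and 21, and the counting of strand is not stated, so its reads cannot be assigned with certainty.

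The genes *Cyp4f39*, *Cyp4f17*, *Cyp4f16*, *Cyp4f15* and *Cyp4f13* stand in this order in 1 cluster on chromosome 17, between positions 32452723 and 32947402, together with 3 P450 genes that did not pass the filter. The neighbours went different ways on day 14. *Cyp4f39* and *Cyp4f16* were higher, *Cyp4f15* and *Cyp4f13* lower (log2FC -1.70 and -0.32), and *Cyp4f17* was not called (0.17, adjusted p = 0.0842). Of the 75-base windows of *Cyp4f16*, 10.1% also occur in another gene, most often *Cyp4f37*.

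*Cyp4v3*, a fatty acid hydroxylase whose human counterpart is known from a retinal disease, changed sign over the course. It ranged from 49.6 to 63 CPM in CTRL mice (median 55.8), from 31.1 to 54.9 CPM on day 14 (median 45.1) and from 57.4 to 82.6 CPM on day 42 (median 73.2). On day 14, 9 of 12 mice lay below the CTRL range, and on day 42, 6 of 7 lay above it. *Cyp4v3* was lower on day 7 (log2FC -0.33 ± 0.11, adjusted p = 0.00837) and day 14 (-0.37 ± 0.10, adjusted p = 0.00132) and higher on day 42 (0.34 ± 0.12, adjusted p = 0.0221). The difference of day 42 from day 14 was 0.71 ± 0.11 (adjusted p = 9.19e-07).

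Among the sterol enzymes, *Cyp7b1*, which hydroxylates oxysterols, had the largest increase of the P450 genes on days 7 to 21. It ranged from 4.41 to 7.83 CPM in CTRL mice (median 5.05), from 16 to 23.1 CPM on day 7 (median 20.9) and from 14.1 to 30.5 CPM on day 14 (median 22.6). On day 28 it ranged from 4.21 to 36.5 CPM (median 11.2), and on day 42 from 7.38 to 18 CPM (median 11.2). All mice of days 7, 14, 21 and 35 lay above the highest CTRL mouse, as did 10 of 12 on day 28 and 5 of 7 on day 42. The log2FC of *Cyp7b1* was 1.94 ± 0.23 on day 7, 2.10 ± 0.22 on day 14 and 1.16 ± 0.25 on day 42, with adjusted p-values of 2.32e-10, 1.74e-12 and 0.00034. It was lower on day 42 than on day 14 (-0.94 ± 0.24, adjusted p = 0.0013).

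*Ch25h*, which makes an oxysterol that *Cyp7b1* acts on, was higher on the same days, with log2FC values of 2.17, 2.39, 2.10, 1.80, 1.11 and 1.36 from day 7 to day 42. Of the 7 listed genes of the oxysterol pathway, 4 were higher and 1 lower on day 14, where 32.4% and 29.9% of all genes tested were. Most markers of monocyte-derived macrophages were also higher. Of these 8 markers, 7 were higher on day 14 and 7 on day 42, and none had a median of 0. Their summed level ran from 188 to 284 CPM in CTRL mice, from 1296 to 8660 CPM on day 14 and from 410 to 3336 CPM on day 42. Of 8 markers of fibroblasts and mesenchymal cells, 5 were higher and 2 lower on day 14, and 1 was called in each direction on day 42. The sum of this second list ran from 2565 to 3330 CPM in CTRL mice, from 4885 to 11807 CPM on day 14 and from 3093 to 3889 CPM on day 42. The part of either group of cells in the *Cyp7b1* level was not tested.

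**Figure D5:**
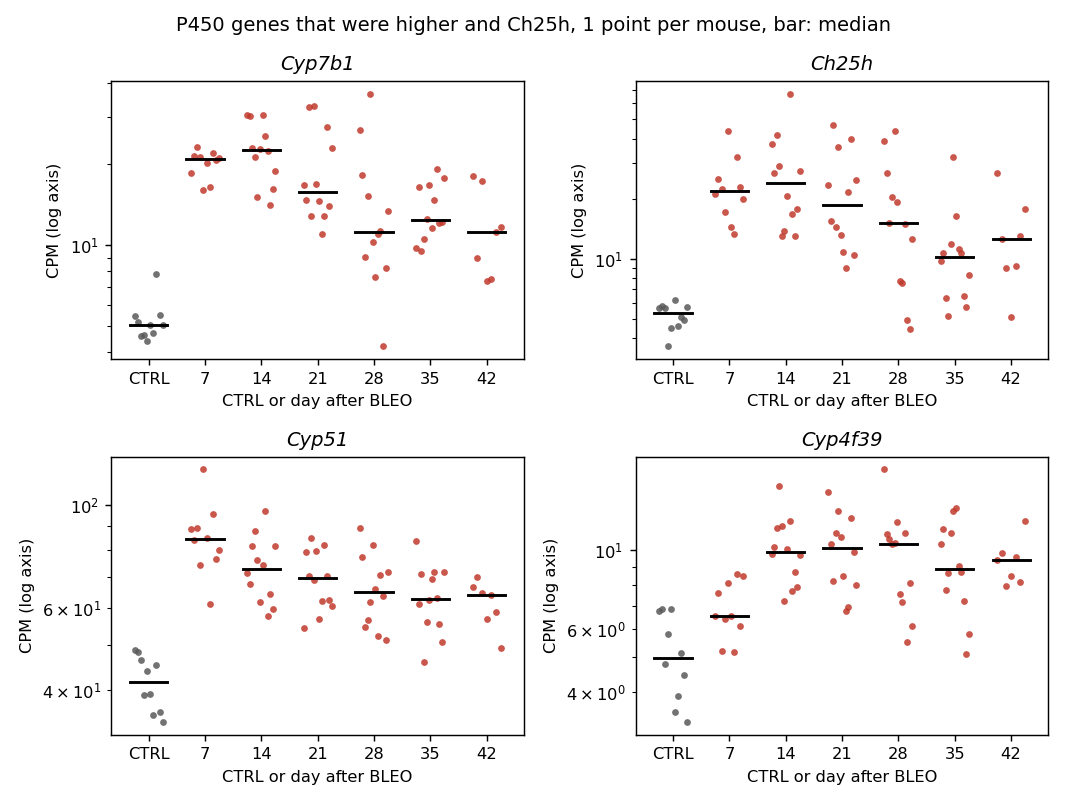
Levels of *Cyp7b1*, *Ch25h*, *Cyp51* and *Cyp4f39* in CPM on log axes, with 1 point per mouse and a bar at the group median. *Cyp7b1*, *Ch25h* and *Cyp51* stand above CTRL in all mice of days 7, 14 and 21, and *Cyp4f39* does so in all mice of days 14 and 42.

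*Cyp51*, the lanosterol demethylase of cholesterol synthesis and the most conserved P450, was higher on all 6 days and most on day 7. It ranged from 34.2 to 48.7 CPM in CTRL mice (median 41.6), from 61.2 to 119 CPM on day 7 (median 84.3), from 57.7 to 97.0 CPM on day 14 (median 72.9) and from 49.4 to 69.9 CPM on day 42 (median 64.1). Only 1 BLEO-IPF mouse, on day 35, did not exceed all CTRL mice. The log2FC was 1.03 ± 0.10 on day 7 (adjusted p = 6.36e-13), 0.82 ± 0.10 on day 14 (adjusted p = 7.53e-11) and 0.56 ± 0.11 on day 42 (adjusted p = 0.0001). The exons of *Cyp51* overlap *Akap9* on the opposite strand, whose counts came to 174% of those of *Cyp51* and whose log2FC was -0.32 on day 7 and -0.38 on day 14. As the counting of strand is not stated, the reads of *Cyp51* cannot be assigned with certainty either.

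The other genes of cholesterol synthesis and uptake were higher with *Cyp51* on day 7. Of 20 listed genes, 17 were higher and 0 lower on day 7, 9 higher and 1 lower on day 14, and 6 higher and 0 lower on day 42. Of all genes tested, 24.8, 32.4 and 13.7% were called higher and 21.0, 29.9 and 11.0% lower on these days. The median log2FC of the 20 genes went from 0.60 on day 7 to 0.20 on day 14. Of the 20, 15 were lower on day 14 than on day 7, where 7.55% of all genes tested were. *Cyp51* itself did not pass the test between these days (log2FC -0.21 ± 0.10, adjusted p = 0.111). *Mvd* and *Hmgcs1*, which encode enzymes of the mevalonate part of the pathway, were higher on all 6 days, with log2FC values of 0.87 and 0.63 on day 7.

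*Cyp27a1* and *Cyp39a1* were the sterol enzymes called lower, *Cyp27a1* on days 7 to 28 and *Cyp39a1* on all 6 days. *Cyp27a1*, the mitochondrial sterol hydroxylase, ranged from 26.9 to 34.2 CPM in CTRL mice (median 27.8), from 10.4 to 20.5 CPM on day 7 (median 18.3) and from 11.3 to 27.2 CPM on day 14 (median 18.1). Of the mice of days 7 and 14, only 1 on day 14 reached the CTRL range. The log2FC of *Cyp27a1* was -0.74 ± 0.13 on day 7 (adjusted p = 3.19e-06), -0.71 ± 0.12 on day 14 (adjusted p = 1.02e-06) and -0.29 ± 0.14 on day 42 (adjusted p = 0.12). *Cyp39a1*, an oxysterol hydroxylase, ranged from 30.3 to 47.7 CPM in CTRL mice (median 37.9) and from 12.3 to 27.7 CPM on day 14 (median 18.5), without overlap. Its log2FC was -0.94 ± 0.12 on day 14 (adjusted p = 1.15e-09) and -0.46 ± 0.14 on day 42 (adjusted p = 0.0135). *Cyp46a1* had log2FC values between -0.45 and 0.14 and no call.

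*Cyp20a1*, an enzyme without a known substrate, varied little in all groups. It ranged from 35.0 to 45.2 CPM in CTRL mice, from 34.8 to 45.2 CPM on day 14 and from 35.4 to 46.2 CPM on day 42, and its log2FC values lay between -0.11 and -0.01 with a SE of 0.05 or 0.06. No day was called, although a filter of at least 10 counts in every mouse called day 7 lower (-0.13, adjusted p = 0.0366).

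*Cyp26b1*, which breaks down retinoic acid, was called on day 42 through 1 mouse. Its CTRL levels were widely spread, from 4.87 to 90.5 CPM in CTRL mice (median 20.2). On day 42 replicate 3 had 679 CPM, the next mouse had 44.3 CPM and the median was 9.55 CPM. The log2FC was 1.91 ± 0.66 (adjusted p = 0.0275), and without replicate 3 it was -1.10 ± 0.63 (adjusted p = 0.215). Against day 14 it was 1.68 ± 0.63 (adjusted p = 0.0312), and without that mouse -1.33 ± 0.62 (adjusted p = 0.0891). The same mouse had the highest level of *Lrat*, which esterifies retinol, in its group (134 CPM, next 39), as high as the highest CTRL mouse. Of the 12 tested genes of the retinoid pathway, 6 were higher and 5 lower on day 14, where 32.4% and 29.9% of all genes tested were. Among those called were *Dhrs9*, a retinol dehydrogenase (log2FC 1.93), and *Aldh1a1*, a retinal dehydrogenase (-1.28).

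Days 42 and 14, and days 14 and 7, were also contrasted directly, and both contrasts share the mice of day 14. On day 42, 14 of the 29 genes were higher than on day 14 (48.3%, where 15.2% of all genes tested were) and 2 were lower (6.90%, where 18.8% of all were). The higher genes were *Cyp2a5*, *Cyp2b10*, *Cyp2d22*, *Cyp2f2*, *Cyp2j9*, *Cyp2s1*, *Cyp3a13*, *Cyp4b1*, *Cyp4f13*, *Cyp4f15*, *Cyp4v3*, *Cyp26b1*, *Cyp27a1* and *Cyp39a1*, and the lower ones *Cyp4f18* and *Cyp7b1*. Without replicate 3 of day 42, 11 were higher and 2 lower. From day 7 to day 14, 9 genes were lower (31%, where 7.55% of all genes tested were) and 2 higher (6.90%, where 9.48% of all were). The latter were *Cyp4f18* and *Cyp4f39*.

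Of the proteins that work with P450 enzymes, the electron donor *Por* fell on all days. It ranged from 382 to 471 CPM in CTRL mice (median 420), from 152 to 288 CPM on day 14 (median 191) and from 219 to 349 CPM on day 42 (median 256). No BLEO-IPF mouse of any day reached the CTRL range. The log2FC of *Por* was -0.66, -1.05, -0.92, -0.81, -0.58 and -0.63 from day 7 to day 42. Of the 9 tested electron donors and membrane partners, 4 were lower and 2 higher on day 14, with *Pgrmc1*, a heme-binding membrane protein, lower on all days (-0.64 on day 14). Of the 13 genes of heme synthesis and breakdown, 5 were higher and 4 lower on day 14. Among all genes tested, 32.4% were called higher and 29.9% lower on that day. Heme oxygenase *Hmox1* was higher (1.65) and *Alas2*, the heme synthesis enzyme of red cell precursors, lower (-1.03).

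The other enzymes of foreign compound metabolism were called in both directions. Of 32 tested phase I and phase II enzymes, 25 were lower and 5 higher on day 14, with a median log2FC of -0.60, and 13 were lower and 2 higher on day 42. Of all genes tested, 29.9 and 11.0% were called lower and 32.4 and 13.7% higher on these days. From day 14 to day 42, 20 of the 32 rose and 3 fell, where 15.2% and 18.8% of all genes tested did. The carboxylesterase *Ces1f*, the aldehyde oxidase *Aox3* and the glutathione transferase *Gsta2* were lower on all 6 days, with log2FC values of -2.25, -2.24 and -2.18 on day 14. Of 13 tested nuclear receptors for foreign compounds and lipids, 5 were lower and 2 higher on day 14, where 29.9% and 32.4% of all genes tested were. *Tbxas1*, the thromboxane synthase, which is a P450 enzyme by sequence but named otherwise, was higher on all 6 days (1.88 on day 14).

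The 71 P450 genes that did not pass the filter include the main P450 enzymes of liver and the adrenal gland. Of these, 4 had no count in any mouse, 50 had a highest count of 1 to 3, 11 of 4 to 9, and 6 of 10 or more. None of the 6 genes of steroid hormone synthesis and neither of the 2 vitamin D genes passed. *Cyp3a11*, a major liver P450, reached 21 counts in replicate 12 of day 35 and 14 in CTRL replicate 8, against at most 5 in the other 73 mice. The liver secretory protein *Alb* had 261 and 192 counts in these 2 mice, against at most 33 elsewhere. *Cyp2c23* reached 16 counts, also in CTRL replicate 8. *Cyp11a1*, which starts steroid synthesis, reached 14 counts in replicate 3 of day 42, and *Cyp21a1* 12 counts in replicate 4 of day 14. When the filter was left out, so that 96 P450 genes entered the fit, some of these were called, such as *Cyp21a1* as higher on days 14, 21, 28 and 35 (adjusted p = 3.98e-06 on day 14) and *Cyp3a11* as lower on days 14, 21 and 28 (adjusted p = 0.0191 on day 14). At such counts no fold change is given.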

How the data were processed

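RNA of the inferior lung lobe of 75 mice was sequenced. The deposited table holds raw counts, whole numbers for each gene and mouse. By the methods and the submitters' processing notes, libraries from a strand-keeping kit were aligned with STAR 2.7.0f to GRCm38 with Ensembl release 96. The program that counted reads and its treatment of strand and of reads with several matches are not given in the sources used here. From the counts, edgeR 4.0.16 in R 4.3.3 fitted 7 group means over all mice with TMM factors and its quasi-likelihood test, on 16221 genes kept by filterByExpr. The Benjamini-Hochberg adjustment ran over all of them, with a threshold of 0.05. CPM values, counts scaled to the library size, use TMM factors. Intervals after ± are SDs between mice for levels and SEs of the fit for log2FC. Depth limits the values as counting error only.

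Named with values were *Cyp1a1*, genes called with an absolute log2FC of at least 1 or on all 6 days, the 2 genes of each family with the highest level per length in CTRL, and up to 3 partner genes per list that were called on all 6 days. Other tested genes were named once. The members, lists and tests were chosen with earlier results of these data known. Single mice were described after their values were seen. Alternatives were DESeq2 1.42.0, other scalings, other filters, only 2 groups, a replicate block and a fold threshold. The fit was tested on simulated counts. No pair of mice within a group agreed within sampling noise (375 pairs, lowest chi-square per degree of freedom 3.88). Figures were drawn with matplotlib 3.10.9 in Python 3.11.15.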

Additional observations from a re-analysis of the deposited data

Results flagged for a closer look

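In 7 of 54 groups of named P450 genes with 4 to 10 mice, the highest mouse lay further from the next than Dixon's critical value allows, where chance flags about 5% of groups. These were *Cyp26b1* in replicate 3 of day 7 (55.5 CPM) and in replicate 3 of day 42 (679 CPM), *Cyp2e1* in replicate 8 of day 7 (295 CPM), *Cyp3a13* in replicate 5 of day 7 (12.6 CPM), *Cyp4b1* in CTRL replicate 2 (893 CPM), *Cyp4f15* in replicate 6 of day 42 (5.36 CPM) and *Cyp7b1* in CTRL replicate 8 (7.83 CPM). CTRL replicate 8 also had 192 counts of *Alb*. *Cyp26b1* was named only through its call on day 42, which rests on replicate 3. As genes were named from these same values, the 7 groups cannot be set against the 5% by chance. The groups of 12 mice, with the high *Cyp1a1* and *Cyp2e1* values of day 28, were too large for this test.

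Levels in BLEO-IPF mice differed between days for several genes by edgeR's test of the difference. All days share the same CTRL mice, so the course after BLEO cannot be told apart from age or time in the study. Between day 42 and day 14 the log2FC was 1.68 for *Cyp26b1*, 1.35 for *Cyp2f2*, 1.01 for *Cyp2a5*, 0.90 for *Cyp4b1*, 0.83 for *Cyp3a13*, 0.79 for *Cyp4f15*, 0.71 for *Cyp4v3*, 0.64 for *Cyp2b10*, 0.48 for *Cyp39a1*, 0.42 for *Cyp27a1*, 0.41 for *Cyp2d22* and -0.94 for *Cyp7b1*. Between day 14 and day 7 it was -3.31 for *Cyp2e1*, -1.14 for *Cyp3a13*, -1.08 for *Cyp4b1*, -1.03 for *Cyp4f15*, -0.73 for *Cyp2f2*, -0.62 for *Cyp2b10*, -0.48 for *Cyp2d22*, -0.44 for *Cyp39a1* and 0.56 for *Cyp4f39*. The value of *Cyp26b1* rests on replicate 3 of day 42 (-1.33 without it), and that of *Cyp2e1* on replicate 8 of day 7 (-0.85 without it).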

How the results depend on the processing

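Of the numbers of P450 genes called, all stayed within 1.5 times the reported number with DESeq2, upper quartile factors, scaling by library size alone, at least 10 counts in every mouse and the replicate block. On day 7 the number of higher genes, 5, became 2 with an added absolute log2FC of at least 0.5 and 3 without replicate 8 of that day. On day 42 the number of lower genes, 7, became 13 in a fit of only those 2 groups. Between day 42 and day 14 the number of higher genes, 14, became 9 with the fold threshold, and that of lower genes, 2, became 1 with the threshold and 4 without a filter, when 96 P450 genes entered the fit. Between day 14 and day 7 the number of higher genes, 2, became 1 with only 2 groups and 1 with the threshold.

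Of 108 log2FC values of the 18 named genes, some changed sign with a call in edgeR's fit of all mice or in the alternative. These were *Cyp2e1* on day 7 in DESeq2 (-1.32) and *Cyp26b1* on day 42 without replicate 3 (-1.10). *Cyp2e1* on day 28 did so in DESeq2 (-1.89), with the replicate block (-1.0) and without replicate 10 (-1.87). The sign of *Cyp2e1* on day 7 also changed without replicate 8 of that day (-1.26), with no call in either fit. Under the replicate block, 103 of the 108 kept direction and call, *Cyp1a1* on day 28 became lower (-2.19, adjusted p = 0.000443), and the call of *Cyp26b1* on day 42 was lost (0.47, adjusted p = 0.695). Among pairs of same-numbered mice of different groups, 63 of 204 correlated over 0.1, with a median of 0.006. Among pairs with other numbers, 556 of 2196 did, with a median of 0.002. This difference was not tested, and the numbers were used only as a block in an alternative fit. The 4 mice left out in turn were chosen after seeing the data. Over these refits the log2FC ran from -1.10 to 1.92 for *Cyp26b1* on day 42 and from -1.87 to 1.98 for *Cyp2e1* on day 28. Leave-one-out refits of the other mice were not run. The cause of these shifts was not tested beyond the mice named. Genes with few counts per mouse, such as *Cyp2ab1* and *Cyp46a1*, are limited by depth.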
